A study of Mus musculus with 29 samples.

Results

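The genes described were 7 receptors of natural killer (NK) cells, taken from the count table by symbol (Ncr1, Klrb1c, Klrk1, Klrd1, Klrc1, Klre1 and Klrg1) out of 24421 genes. The rule used no measured value, though the list was drawn up with earlier results of these data known. Peritoneal dissemination of gastric cancer was modeled in female C57BL/6J mice, 5 to 6 weeks old, which received YTN16 cells, a mouse gastric cancer line, by intraperitoneal (IP) injection. RNA-seq was made of 29 mice, 1 library each. Tissue taken at 3wk (day 21) came from 5 untreated mice and from 5 given dual ICI. Tissue taken at 5wk (day 35) came from 5 untreated mice, 5 given anti-PD1, 4 given anti-CTLA4 and 5 given dual ICI, of which 2 were uncured and 3 cured. All carried the YTN16 injection. Untreated mice received PBS, anti-PD1 was given at 10 mg/kg, anti-CTLA4 at 5 mg/kg, and dual ICI was both antibodies. The labels give treatment, day and mouse number, and the outcome of the dual ICI mice at 5wk was assigned from the study's text, which numbers #1 and #5 as uncured and #2, #3 and #4 as cured. The text also counts a cured mouse among the anti-PD1 mice, and the labels do not say which it is. The labels call the tissue tumor, while the study's methods describe stripped peritoneum with or without nodules, so the libraries could hold tumor, immune cells and body wall in differing shares.

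NK cells kill without prior priming, and the balance of activating and inhibitory receptors on their surface sets whether they do. Ncr1 encodes NKp46, an activating receptor largely confined to NK cells and related innate lymphoid cells. Klrk1 encodes NKG2D, an activating receptor that binds stress-induced ligands of the Raet1, H60 and Ulbp1 families and signals through the adaptors Hcst and Tyrobp, and Klrb1c encodes NK1.1, the activating receptor by which NK cells of this strain are commonly sorted. Klrd1 encodes CD94, which pairs with the NKG2A protein of Klrc1 to form an inhibitory receptor for the Qa-1 molecule of H2-T23. Klre1 encodes a partner of the KLRI receptors, and Klrg1 an inhibitory receptor for cadherins. Klrk1, Klrd1, Klrc1 and Klrg1 are also carried by activated CD8 T cells. In bulk RNA, fewer cells of a type cannot be told apart from less RNA per cell, nor NK cells from T cells that carry the same receptor.

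In the GRCm38 (mm10) annotation of GENCODE, 6 of the genes lie on chromosome 6, 7.41 Mb from the first to the last, and Ncr1 lies on chromosome 7. Klre1 (chr6:129577905-129585827, + strand), Klrd1 (chr6:129591782-129598775, +), Klrk1 (chr6:129610323-129623864, -) and Klrc1 (chr6:129666015-129678973, -) sit within 101 kb of each other. Klrb1c (chr6:128778485-128789215, -) and Klrg1 (chr6:122270596-122282882, -) lie further off, and Ncr1 is at chr7:4337724-4345164 (+). Klrb1c overlaps the gene Gm44511 on the same strand, and both Klrb1c and Klrc1 have close relatives (the other Klrb1 genes, and Klrc2 and Klrc3), so reads could have been shared and their counts are uncertain. The 250 bases before the start of 3 genes are shown as examples of the regulatory sequence next to an activating receptor on each chromosome (Ncr1, Klrk1) and an inhibitory one (Klrc1). They come from RefSeq on GRCm38.p6, which gave a window for 5 of the 7 genes and none for Klrd1 and Klrg1. Those of Klrb1c and Klre1 lie inside the GENCODE gene models, which start further out, and are not printed. Capitals mark letters named after transcription factor families of NK cells, searched on both strands: TGTGGT or ACCACA for Runx and TCACAC or GTGTGA for T-box (CCGGAA or TTCCGG for ETS was found in none of the 5). The Ncr1 window is chr7:4337465-4337714 on the + strand, that of Klrk1 chr6:129623865-129624114 on the - strand, and that of Klrc1 chr6:129678974-129679223 on the - strand.
Ncr1: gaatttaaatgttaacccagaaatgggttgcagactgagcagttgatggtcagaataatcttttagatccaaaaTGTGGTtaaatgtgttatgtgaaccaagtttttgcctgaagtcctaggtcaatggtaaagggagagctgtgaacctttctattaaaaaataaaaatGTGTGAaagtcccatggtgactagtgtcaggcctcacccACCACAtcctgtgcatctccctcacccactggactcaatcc
Klrk1: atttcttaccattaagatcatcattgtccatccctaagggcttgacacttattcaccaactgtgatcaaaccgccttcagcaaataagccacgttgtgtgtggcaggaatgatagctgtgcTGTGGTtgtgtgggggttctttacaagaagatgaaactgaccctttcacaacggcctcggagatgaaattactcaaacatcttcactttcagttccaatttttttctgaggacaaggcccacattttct
Klrc1: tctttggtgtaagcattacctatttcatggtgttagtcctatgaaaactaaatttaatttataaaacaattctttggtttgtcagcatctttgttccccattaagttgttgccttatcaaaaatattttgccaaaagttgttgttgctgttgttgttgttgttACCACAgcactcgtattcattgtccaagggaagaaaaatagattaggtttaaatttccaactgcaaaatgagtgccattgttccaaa
The Runx letters occurred in 5 of the 5 windows, at 2 places in that of Ncr1, against 14.0% of the 32851 windows of all genes, and the T-box letters in that of Ncr1 alone, against 12.3%. These are descriptions of letters in a window, and nothing about binding was measured.

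The receptors were expressed at low levels. Library totals ran from 25989217 to 31219650 counts, and the members took from 2 counts (Klrc1 or Klre1 in a library) to 300 (Klrk1 in dual ICI 3wk mouse 4). A count of 2 has a 95% Poisson interval of 0.242 to 7.22 and a count of 300 one of 267 to 336, and these intervals cover counting error only. Levels are given as CPM, read counts scaled to library size after TMM correction. Per kb of exon, and averaged over the 29 libraries, Klrd1 was highest (1.20 CPM per kb), followed by Klrg1 (0.717), Klrc1 (0.382), Klrk1 (0.349), Ncr1 (0.261), Klrb1c (0.193) and Klre1 (0.107). The length was that of the merged exons of all GENCODE transcripts, 7183 bases for Klrk1 and 1281 for Klrd1, and this order depends on it. In CPM without length, Klrk1 had the highest mean (2.51) and Klrd1 a mean of 1.54. Klrd1 was the highest of the 7 on this scale in 20 of 29 libraries, Klrg1 in 8 and Klrk1 in 1.

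**Figure D1:**
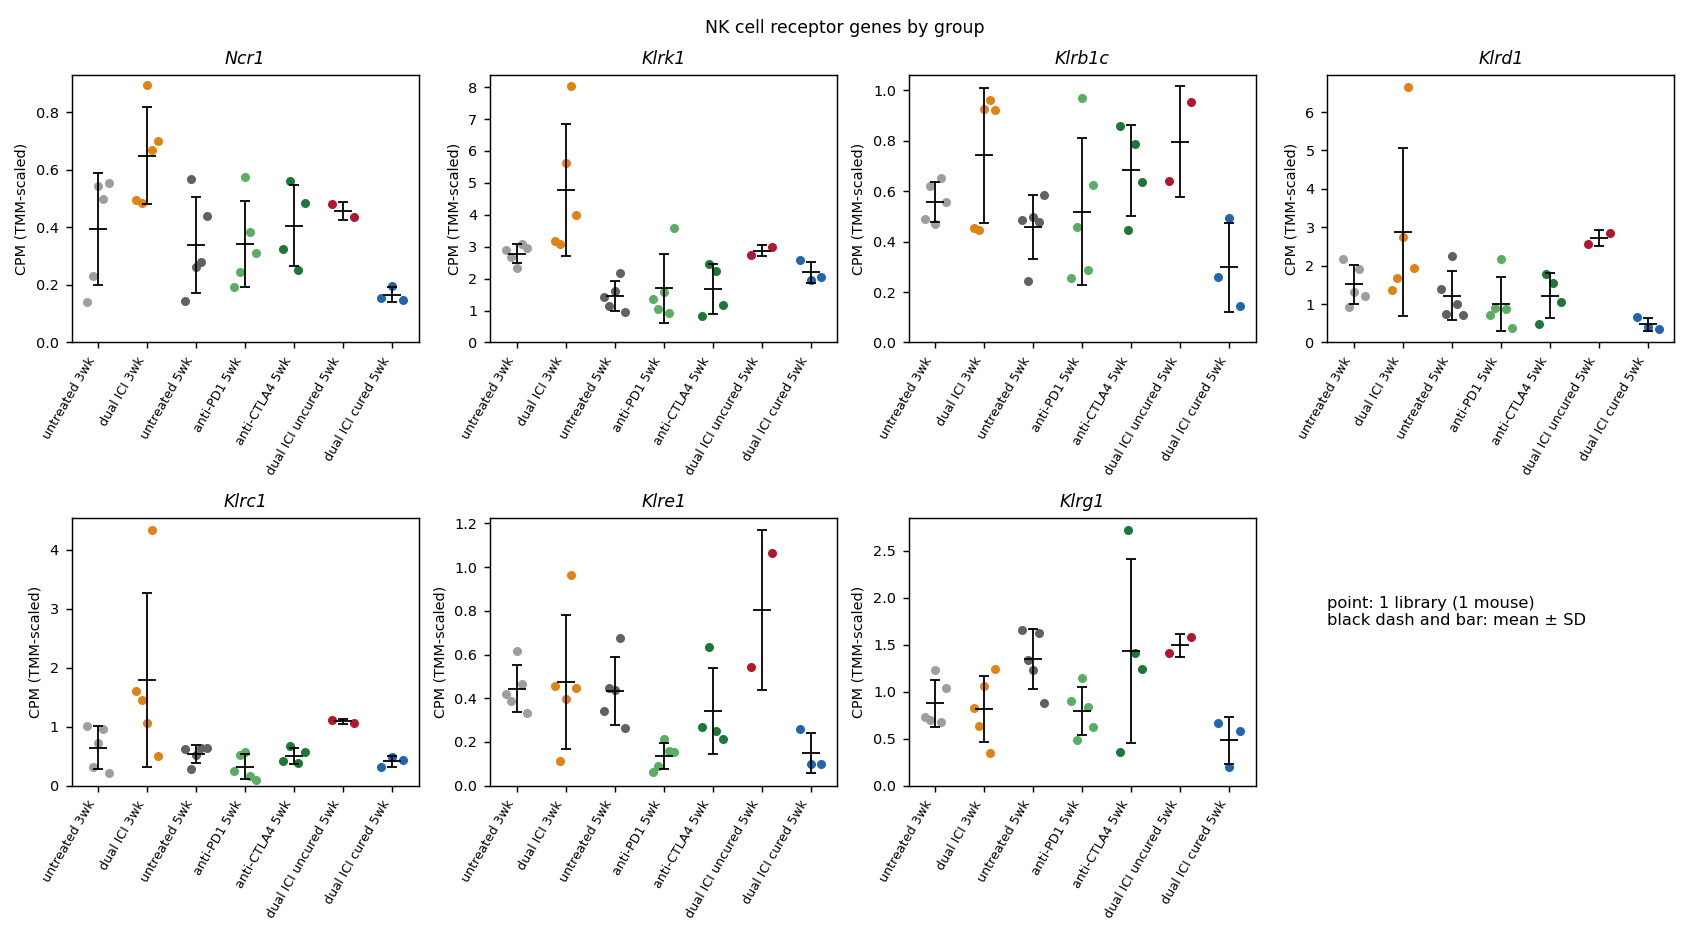
Each panel plots 1 receptor gene in CPM (TMM-scaled) for 29 libraries in 7 groups. Points are libraries, and the dash and bar are the mean ± SD. The 3 cured mice had the lowest mean of the 7 groups for Ncr1, Klrb1c, Klrd1 and Klrg1. Anti-PD1 mice had the lowest mean for Klrc1 and Klre1. For Klrk1 untreated mice at 5wk were lowest, and the mean of the cured mice was 2.20 CPM.

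The makeup of the libraries differed between groups, which bears on every comparison with the cured mice. Summed over 16 gastric epithelium genes (all 16 in the table), cured mice held 23.1 to 102 CPM and uncured mice 3624 and 4346, while untreated mice held 1179 to 4001 at 5wk. In cured mice Tff1, Gkn1, Gkn2 and Muc5ac were at 0. Over 16 skeletal muscle genes, cured mice held 293512 to 332143 CPM, uncured mice 63354 and 44219, and untreated mice 47262 to 254734 at 5wk. Anti-PD1 mouse 5 stood with the cured mice in both (65.6 CPM of gastric epithelium and 301721 CPM of skeletal muscle), apart from the other 4 anti-PD1 mice (2941 to 3834 and 46594 to 107199 CPM). T cell genes (12 of 15 in the table) summed to 51.4 to 92.8 CPM in dual ICI mice at 3wk against 22.1 to 36.3 in untreated mice, and to 55.0 and 56.3 CPM in uncured, 19.6 to 23.2 in cured and 21.7 to 34.1 in untreated mice at 5wk. Macrophage and monocyte genes (11 of 11) summed to 1140 to 1202 CPM in cured and 2130 and 2404 CPM in uncured mice. Genes of gamma delta T cells and innate lymphoid cells (6 of 11) summed to 259 to 322 CPM in cured and 104 and 116 CPM in uncured mice.

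**Figure D2:**
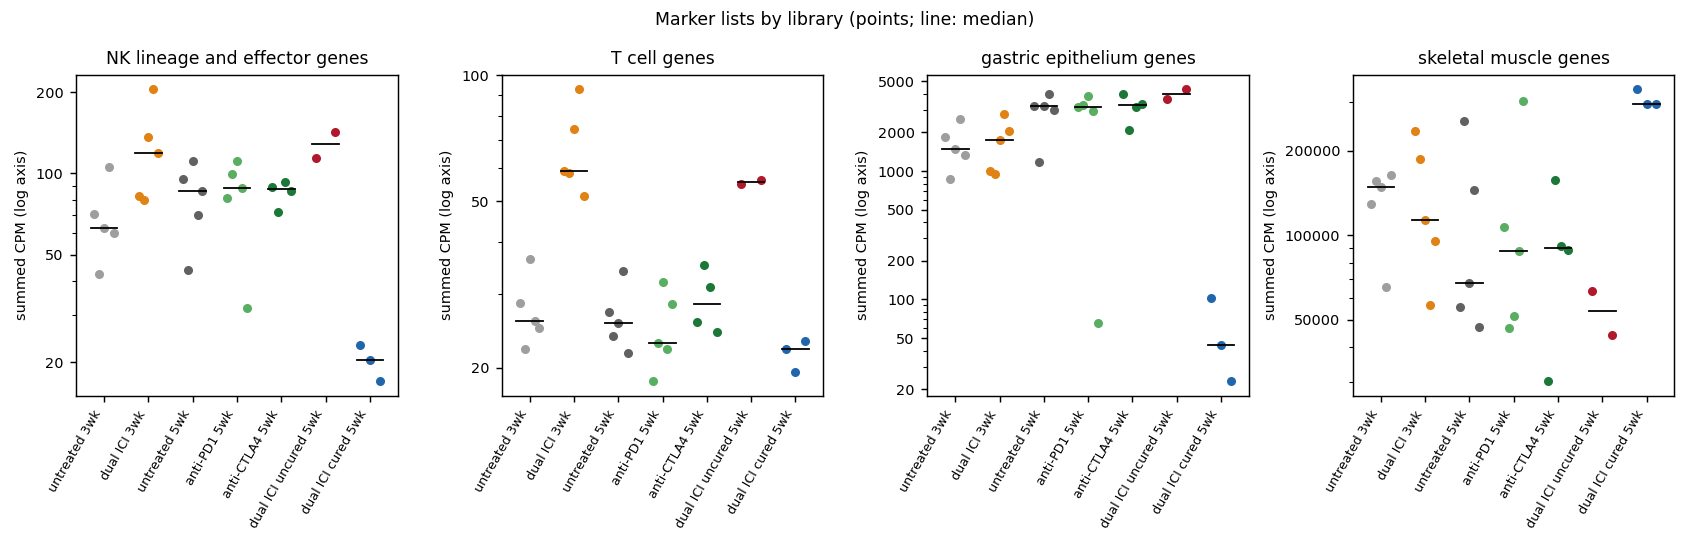
The 4 panels plot the summed CPM of NK lineage and effector genes, T cell genes, gastric epithelium genes and skeletal muscle genes for each library, on log axes, with a line at the group median. The cured mice lay lowest in gastric epithelium apart from anti-PD1 mouse 5 (65.6 CPM), and 2 of them lay below it.

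Dual ICI treatment raised no single receptor past the threshold at 3wk, although most were higher in treated mice. With edgeR's quasi-likelihood test (Benjamini-Hochberg adjustment over all genes tested, two-sided), 0 of 7 passed an adjusted p under 0.05 against 0.574% of all genes. At an unadjusted p under 0.05 the test gave 2 (Klrk1 and Klrc1, against 10.7% of all genes), and DESeq2 gave 0 at its adjusted p. The log2 fold change was above 0 for 6 of 7 (54.6% of all genes), with a median of 0.72 against 0.02 over all genes. Klrk1 was the one member whose groups did not overlap, which held in this direction for 1.9% of all genes. Klrc1 had the largest log2 fold change (1.47 ± 0.57, SE, adjusted p = 0.365) and Klrg1 the lowest (-0.10 ± 0.35, adjusted p = 0.971). Without dual ICI mouse 4, which was highest of its group for Klrk1, Klrd1, Klrc1, Klre1 and Klrb1c, the log2 fold change of Klrc1 was 0.80, and those of Klre1 and Klrg1 changed sign (to -0.34 and 0.10). T cell genes moved with the treatment in the same mice (4 of 11 tested were called, all higher, median log2 fold change 1.23). Their part in the receptor levels was not tested.

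At 5wk the uncured dual ICI mice had a log2 fold change above 0 against untreated mice for all 7 receptors (48.8% of all genes), again with none past the threshold. EdgeR called 0 of 7 (0% of all genes) at an adjusted p under 0.05, 3 at an unadjusted p under 0.05 (Klrk1, Klrd1 and Klrc1, against 4.87% of all genes), and DESeq2 called 0. The median log2 fold change was 0.90 against -0.01 over all genes. In 4 of the 7 (Klrb1c, Klrk1, Klrd1 and Klrc1) both uncured mice lay above all 5 untreated mice, against 9.19% of all genes. With 2 uncured mice the spread of that group rests on a single pair. When all 5 dual ICI mice were compared with untreated mice, cured and uncured together, edgeR called 0 of the 6 receptors tested (0% of all genes; Ncr1 was under the low-count filter), 1 had an unadjusted p under 0.05 against 6.87% of all genes (Klrk1, log2 fold change 0.75 ± 0.26, adjusted p = 0.634), and DESeq2 called 0.

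The cured mice had lower values than untreated mice for most receptors, with Klrk1 as the exception. Klrd1, Klre1 and Klrg1 fell against untreated mice at 5wk, between 2.59-fold and 2.79-fold, and the groups did not overlap for any of these 3. EdgeR called 3 of the 6 receptors tested, all lower (Ncr1 was under the low-count filter), against 26.7% of all genes called lower and 44.7% called in either direction. Non-overlapping lower values held for 26.4% of all genes. DESeq2 called 2 (Klrd1 and Klrg1). Klrk1 had a log2 fold change of 0.59 ± 0.31 (adjusted p = 0.140), the only one of the 6 above 0. That difference is one of scaled values. Raw Klrk1 counts averaged 44.0 in cured and 44.2 in untreated mice, at similar library totals. The TMM factors over all 29 libraries were 0.693, 0.723 and 0.720 in cured mice and 0.793 to 1.20 in untreated mice. The 3 calls lay close to the threshold: Klrd1 was not called in 6 of 8 fits with 1 library left out, Klre1 in 5 of 8 and Klrg1 in 2 of 8, and Klrg1 lost its call without cured mouse 3 or cured mouse 4 (highest adjusted p = 0.0766). The fall came with less gastric epithelium and more skeletal muscle RNA (above). The part of tissue content in these falls was not tested.

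The 7 receptors had higher values in uncured than in cured dual ICI mice. The tissue of these groups also differed in gastric epithelium and skeletal muscle RNA (above), and its part in the receptor differences was not tested. Both uncured mice lay above all 3 cured mice for each of the 7, where 43.3% of all genes did so, and edgeR called 6 of 7, all higher in uncured mice, against 36.9% of all genes called higher and 70% in either direction. Klrd1 differed most, by 5.72-fold (log2 fold change 2.52 ± 0.36, adjusted p = 0.000276), then Klre1 by 5.23-fold (2.39 ± 0.60, adjusted p = 0.00670) and Klrg1 by 3.06-fold (1.61 ± 0.46, adjusted p = 0.0128). Ncr1 (2.68-fold, adjusted p = 0.0355), Klrb1c (2.63-fold, adjusted p = 0.0440) and Klrc1 (2.59-fold, adjusted p = 0.0128) followed. Klrk1 differed by 1.30-fold and was not called (log2 fold change 0.38 ± 0.26, adjusted p = 0.221). The median over the 7 was 1.42 against 0.05 over all genes. DESeq2 called 3 (Klrd1, Klre1 and Klrg1). Klrd1 was called in each of the 5 fits with 1 library left out, Ncr1 in none of them and Klrb1c only in that without cured mouse 3. Without uncured mouse 5, Klrd1 was the single receptor called, and without uncured mouse 1 it was called with Klre1 and Klrg1.

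**Figure D3:**
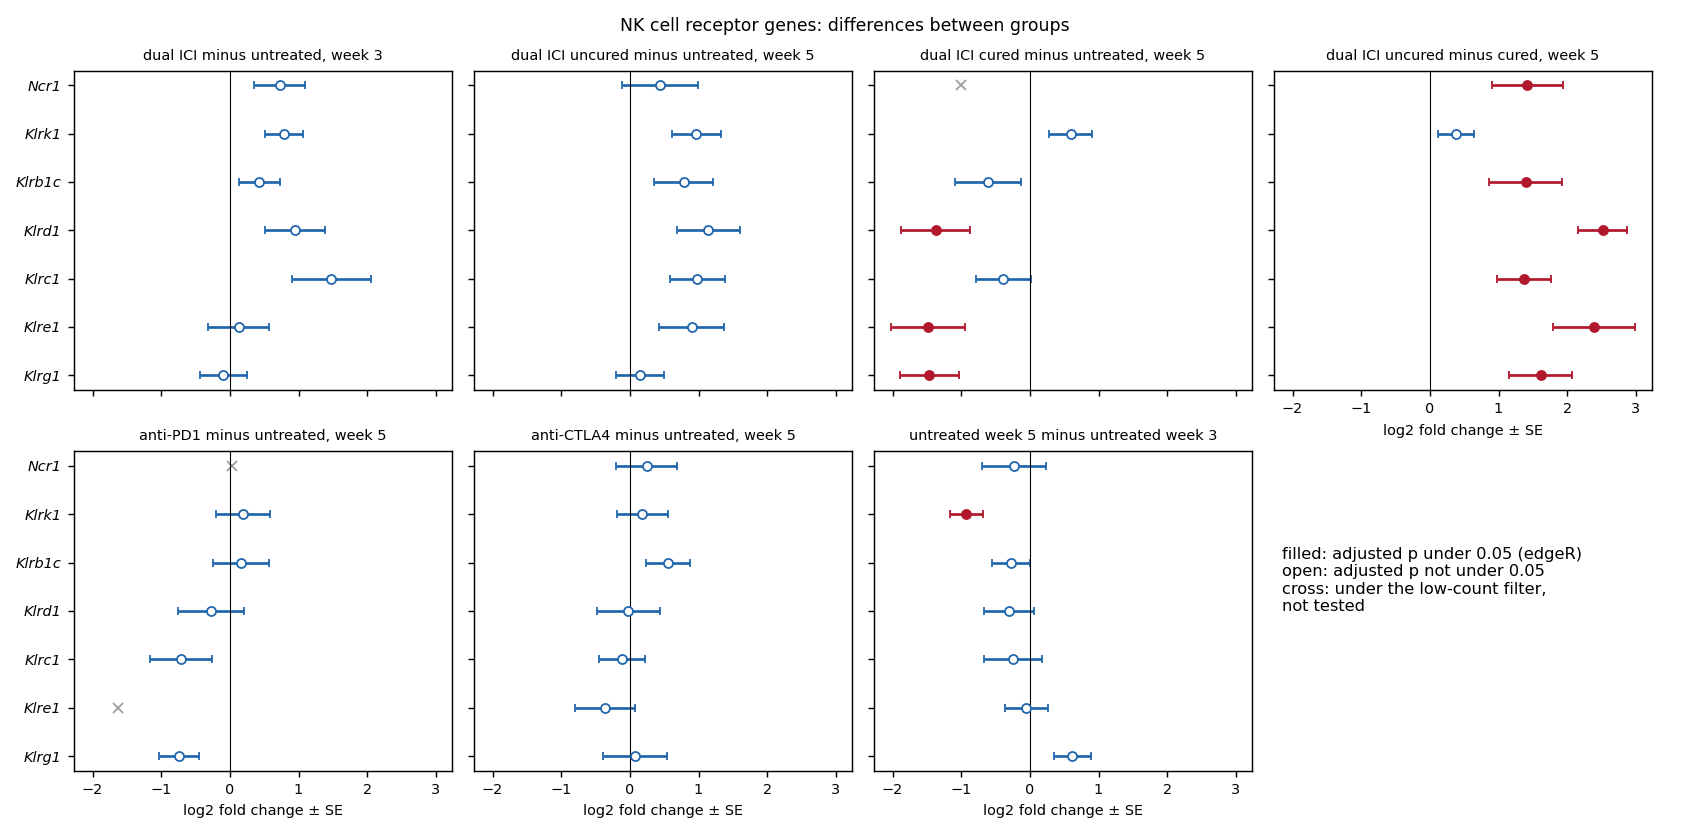
The 7 panels plot the log2 fold change ± SE (edgeR) of each receptor in 7 comparisons, with the group named second subtracted from the group named first. Filled points had an adjusted p under 0.05, open points did not, and crosses mark genes under the low-count filter, which were not tested. Calls appear in the comparisons with the cured mice (3 and 6) and, for Klrk1, between the untreated groups.

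Neither monotherapy moved a receptor past the threshold at 5wk. For anti-PD1, edgeR called 0 of the 5 receptors tested (0% of all genes), 1 at an unadjusted p under 0.05 against 1.31% of all genes (Klrg1, log2 fold change -0.75 ± 0.29, adjusted p = 1.00), and DESeq2 called 0. Klre1 was under the low-count filter in this comparison, with 2, 3, 7, 5 and 3 counts in anti-PD1 mice 1 to 5 against 12, 11, 15, 17 and 9 in untreated mice 1 to 5. All 5 CPM values were below those of the untreated mice, which held in this direction for 0.217% of the genes tested, and without the filter its log2 fold change was -1.63 ± 0.43 (unadjusted p = 0.00277, adjusted p = 1.00). For anti-CTLA4, edgeR called 0 of 7 (0% of all genes), 0 at an unadjusted p under 0.05 (0.811% of all genes), and DESeq2 called 0. Set against the 9 monotherapy mice together, the uncured dual ICI mice had a log2 fold change above 0 for all 7 receptors (50.8% of all genes). EdgeR called 0 of 7 (0% of all genes) and 3 at an unadjusted p under 0.05 (Klre1, Klrc1 and Klrd1, against 6.64% of all genes), and DESeq2 called 0. The largest of these differences was that of Klre1 (log2 fold change 1.82 ± 0.55, adjusted p = 0.641). Both uncured mice lay above all 9 for Klrd1 and Klrc1, against 5.25% of all genes.

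Between the untreated groups, Klrk1 was the one receptor called. It was 1.90-fold lower at 5wk than at 3wk (log2 fold change -0.93 ± 0.24, adjusted p = 0.0327), without overlap, and 1 of 7 receptors called lower compared with 4.58% of all genes called lower (10.8% in either direction) and 5.18% not overlapping in that direction. DESeq2 called the same gene. The call was lost in 8 of 10 fits with 1 library left out, with adjusted p up to 0.0800, and held without untreated 5wk mouse 2 or mouse 4. The serial numbers in the library names form one run for 3wk and another for 5wk, so time and sequencing series cannot be told apart. Tissue makeup differed as well, with overlap. Gastric epithelium genes summed to a median of 1496 CPM at 3wk and 3215 CPM at 5wk, and skeletal muscle genes to 148898 and 67674 CPM. The part of tissue content in the Klrk1 difference was not tested. Klrg1 was 1.53-fold higher at 5wk without passing (adjusted p = 0.152). The change in the dual ICI effect from 3wk to the uncured mice at 5wk was called for 0 of 7 receptors by edgeR (0% of all genes), for 0 at an unadjusted p under 0.05 (6.35% of all genes) and for 0 by DESeq2. The 3wk mice were not split by outcome, and the study's text gives further antibody doses to mice kept until 5wk. Time, dosing and selection by outcome cannot be told apart in this comparison.

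Among the activating receptors, Ncr1 was the scarcest in counts, between 3 and 27 per library. In untreated mice at 3wk it stood at 0.140, 0.232, 0.544, 0.497 and 0.555 CPM (mice 1 to 5), and in dual ICI mice at 0.495, 0.484, 0.893, 0.669 and 0.699 CPM. The dual ICI mice were higher on average (0.648 ± 0.168 against 0.394 ± 0.194, SD, n = 5 each), with overlap (log2 fold change 0.72 ± 0.38, adjusted p = 0.543). At 5wk the uncured mice had 0.480 and 0.436 CPM and the cured mice 0.155, 0.197 and 0.146 CPM. The cured mice thus held 3 or 4 counts of this NK-restricted gene each, below both uncured mice and within the range of untreated mice (0.143 to 0.568 CPM). Anti-PD1 mice ranged from 0.193 to 0.576 CPM (median 0.312) and anti-CTLA4 mice from 0.252 to 0.560 CPM (median 0.405), both overlapping with the untreated mice. In the order of group means, dual ICI 3wk came first and cured mice last, and the one pair of neighbours that did not overlap was the first and the second group (dual ICI 3wk and uncured).

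Klrk1 had the most counts of the 7, between 28 and 300 per library. In untreated mice at 3wk it stood at 2.90, 2.67, 2.32, 3.07 and 2.96 CPM, and in dual ICI mice at 3.18, 3.09, 5.62, 8.02 and 4.00 CPM. Every dual ICI mouse was thus above every untreated mouse at 3wk, by the narrowest margin for mouse 2. The means were 4.78 ± 2.08 and 2.79 ± 0.30 CPM (SD, n = 5 each), a log2 fold change of 0.79 ± 0.27 with an adjusted p of 0.295. At 5wk untreated mice had 1.43, 1.14, 1.61, 2.19 and 0.968 CPM, uncured mice 2.75 and 3.00 CPM and cured mice 2.58, 1.97 and 2.05 CPM. In CPM the cured mice lay between the other groups here, overlapping with untreated mouse 4 alone. In raw counts the cured mice (40 to 50) lay inside the untreated range (28 to 55). With all mice kept, their difference from the untreated mice was not called (adjusted p = 0.140), where 44.7% of all genes were. Of 8 fits with 1 library left out, only 1 called Klrk1, that without untreated mouse 4 (adjusted p = 0.0389, log2 fold change 0.82 ± 0.27). Leaving out the one overlapping mouse favours a difference, so that fit adds no support for one. Anti-PD1 mice 1 to 4 ranged from 0.930 to 1.58 CPM, and mouse 5 had 3.59 CPM. Anti-CTLA4 mice had 0.829, 2.46, 2.24 and 1.18 CPM. In the order of group means, dual ICI 3wk was followed without overlap by uncured mice, and each later neighbour overlapped with the one before it (untreated 3wk, cured, anti-PD1, anti-CTLA4, untreated 5wk).

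Klrb1c, the NK1.1 gene, stood at 0.489, 0.619, 0.472, 0.652 and 0.555 CPM in untreated and 0.454, 0.447, 0.926, 0.963 and 0.922 CPM in dual ICI mice at 3wk. Dual ICI mice 3, 4 and 5 were above every untreated mouse and mice 1 and 2 below all of them, with a log2 fold change of 0.43 ± 0.30 (adjusted p = 0.681). At 5wk untreated mice had 0.486, 0.244, 0.498, 0.477 and 0.587 CPM, uncured mice 0.640 and 0.953 CPM and cured mice 0.258, 0.492 and 0.146 CPM. The uncured mice were above both other groups, and the cured mice spread over and below the untreated range. The monotherapy mice ranged from 0.257 to 0.969 CPM, and no neighbours in the order of group means failed to overlap.

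The CD94 and NKG2A genes encode the 2 chains of an inhibitory receptor. Their variance reached 48.0 times (Klrd1) and 35.7 times (Klrc1) the mean count, the highest of the 7 genes. Both values are those of dual ICI mice at 3wk, where mouse 4 was far above the others. In the other groups Klrd1 reached 14.0 times (anti-PD1) and Klrc1 6.02 times (untreated 3wk). There Klrk1 reached 20.3 times (anti-PD1) and Klrg1 19.4 times (anti-CTLA4). Klrd1 stood at 2.17, 0.929, 1.31, 1.93 and 1.22 CPM in untreated and at 1.36, 1.68, 2.74, 6.66 and 1.94 CPM in dual ICI mice at 3wk, with means of 1.51 ± 0.52 and 2.88 ± 2.18 CPM (SD, n = 5 each). The log2 fold change was 0.95 ± 0.44 (adjusted p = 0.478), and 0.35 without dual ICI mouse 4. At 5wk untreated mice had 1.40, 0.731, 2.26, 0.994 and 0.704 CPM, uncured mice 2.56 and 2.86 CPM and cured mice 0.670, 0.394 and 0.341 CPM. Here the 3 groups did not overlap at all, with uncured mice above and cured mice below every untreated mouse, if narrowly so between untreated mouse 5 and cured mouse 2. The log2 fold change was 1.14 ± 0.46 for uncured against untreated (adjusted p = 0.734) and -1.37 ± 0.50 for cured against untreated (adjusted p = 0.0485). Anti-PD1 mice had 0.706, 0.886, 2.18, 0.866 and 0.364 CPM and anti-CTLA4 mice 0.474, 1.79, 1.54 and 1.06 CPM, all below both uncured mice.

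Klrc1 followed Klrd1 in part. It stood at 1.01, 0.310, 0.726, 0.963 and 0.222 CPM in untreated and 1.61, 1.45, 1.06, 4.33 and 0.508 CPM in dual ICI mice at 3wk, where 4 of 5 treated mice were above all untreated mice and mouse 5 was not. At 5wk untreated mice ranged from 0.284 to 0.645 CPM (median 0.628), uncured mice had 1.12 and 1.06 CPM and cured mice 0.309, 0.492 and 0.439 CPM. The uncured mice were again above all others at 5wk, while the cured mice were within the untreated range (adjusted p = 0.443). Anti-PD1 mice had the lowest group mean (0.323 ± 0.213 CPM, SD, n = 5), with 2 counts in mouse 5. Counted against Klrd1 in the same library, Klrc1 reached 0.462, 1.25 and 1.29 of the Klrd1 count in cured mice and 0.438 and 0.371 in uncured mice, on 6 to 13 counts a gene in the cured mice.

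Klre1 stood at 0.343, 0.447, 0.439, 0.676 and 0.264 CPM in untreated mice at 5wk, 0.544 and 1.06 CPM in uncured mice and 0.258, 0.0984 and 0.0975 CPM in cured mice. Cured mice 3 and 4 had 2 counts each, and cured mouse 2, with 5, was next to the lowest untreated mouse. Against untreated mice the cured mice fell by 1.48 on the log2 scale (SE 0.54, adjusted p = 0.0482). At 3wk the groups overlapped (0.333 to 0.617 and 0.112 to 0.963 CPM, adjusted p = 0.969). Anti-PD1 mice ranged from 0.0642 to 0.212 CPM, below all untreated mice, and anti-CTLA4 mice from 0.212 to 0.635 CPM.

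Klrg1 had the log2 fold changes nearest to 0 under dual ICI treatment, -0.10 ± 0.35 at 3wk and 0.14 ± 0.35 in uncured mice at 5wk (adjusted p = 0.971 and 0.896). Whether its response differs from that of the other receptors was not tested. It stood at 1.66, 1.34, 1.23, 1.63 and 0.880 CPM in untreated mice at 5wk, 1.41 and 1.58 CPM in uncured mice and 0.670, 0.197 and 0.585 CPM in cured mice, so that the cured mice alone were set apart. The cured mice fell by 1.46 on the log2 scale (SE 0.43, adjusted p = 0.0218). Anti-PD1 mice had 0.489 to 1.15 CPM (median 0.834) and anti-CTLA4 mice 0.355, 2.73, 1.42 and 1.24 CPM. No neighbours in the order of its group means were free of overlap.

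Summed over the 7 genes, the receptors reached 9.51 and 11.0 CPM in uncured mice, 3.80 to 4.90 CPM in cured mice and 4.49 to 6.88 CPM in untreated mice at 5wk. The makeup of that sum also differed. Klrk1 made up 51.3% to 53.8% of the 7 genes' counts in cured mice, 27.4% and 29.0% in uncured mice and 21.6% to 31.8% in untreated mice at 5wk, a share that also depends on the length of each gene, which is the same in every library. At 3wk it was 32.2% to 45.7% in untreated and 36.5% to 44.3% in dual ICI mice. The highest share of all libraries, 62.2%, was that of anti-PD1 mouse 5. The count of Klrd1 was 0.167 to 0.260 times that of Klrk1 in cured mice and 0.455 to 1.40 times in untreated mice at 5wk. Against Cd8a, which marks CD8 T cells, Klrd1 had 0.424 to 0.688 counts per count in untreated mice at 3wk and 0.131 to 0.286 in dual ICI mice, whose Cd8a level was 8.39 to 23.3 CPM against 1.55 to 4.19 CPM. The 3wk ranges do not overlap, with Klrd1 lower relative to Cd8a under treatment. At 5wk the uncured mice (0.30 and 0.32) lay inside the range of the untreated mice (0.210 to 0.811). These ratios were looked at after the levels were known and carry no test.

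**Figure D4:**
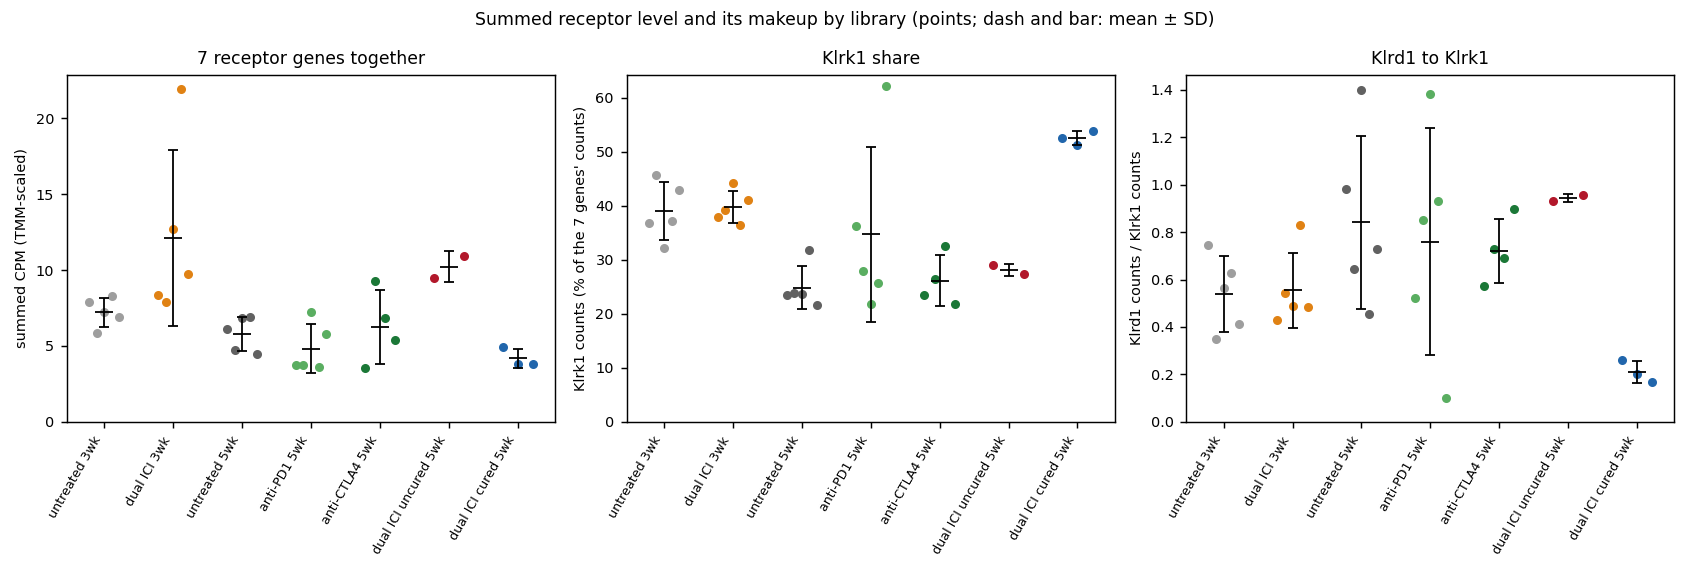
The 3 panels plot, per library, the summed CPM of the 7 receptor genes, the percentage of their counts that came from Klrk1, and the ratio of Klrd1 to Klrk1 counts. Points are libraries, and the dash and bar are the mean ± SD. Cured mice had the lowest mean sum (4.18 CPM) and a Klrk1 share of 51.3% to 53.8%, above every other library except anti-PD1 mouse 5 (62.2%).

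Other receptors of the same families (31 of 32 in the table) included Klra4, Klra6, Klra8 and Klra13-ps at 0 in all 7 groups, and 15 passed the filter at 3wk. Dual ICI raised 1 of those 15 at 3wk, Klra2, a Ly49 family gene (8.78 ± 3.62 against 3.47 ± 0.25 CPM, SD, n = 5 each, adjusted p = 0.0444). At 3wk 0.574% of all genes were called in either direction. In cured against untreated mice 7 of 14 fell and 1 rose, beside 26.7% of all genes lower and 44.7% in either direction, with a median log2 fold change of -0.88 against -0.05 over all genes. Fcgr4 (10.8 ± 3.40 CPM, SD, n = 5, to 1.63 ± 0.68 CPM, SD, n = 3, adjusted p = 0.000686), an Fc receptor gene more typical of macrophages, and Klrb1b, an inhibitory relative of NK1.1 (1.76 ± 0.59 to 0.574 ± 0.366 CPM, adjusted p = 0.0305), were among those that fell. Cd226, the activating receptor DNAM-1, rose (0.986 ± 0.355 to 3.57 ± 1.04 CPM, adjusted p = 0.00322). In uncured against cured mice 10 of 15 were higher and 0 lower, beside 36.9% of all genes higher and 70% in either direction. From 3wk to 5wk in untreated mice 2 of 14 fell and 0 rose: Cd226 (3.13 ± 1.06 to 0.986 ± 0.355 CPM, adjusted p = 0.0122) and Klri1, the partner of Klre1 (0.662 ± 0.196 to 0.181 ± 0.073 CPM, adjusted p = 0.0141). Of all genes 4.58% were called lower in that comparison and 10.8% in either direction. Cd226 thus shared with Klrk1 the lower level at 5wk and the higher mean CPM in cured mice. For Klrk1 the raw mean counts were 44.0 in cured and 44.2 in untreated mice at 5wk.

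The 20 genes for adaptors and signalling had a median log2 fold change of 0.54 with dual ICI at 3wk, against 0.02 over all genes. Beside 0.574% of all genes called in either direction, 4 of the 20 rose and 0 fell. These were Cd247 (CD3 zeta, 3.91 ± 0.35 against 1.66 ± 0.20 CPM, adjusted p = 0.0120), Lat, Lat2 and Zap70 (5.28 ± 0.39 against 2.25 ± 0.64 CPM, adjusted p = 0.0275), and Cd247, Lat and Zap70 serve the T cell receptor as well. In cured against untreated mice 4 of 20 fell and 2 rose, beside 26.7% of all genes lower and 44.7% in either direction. Those that fell were the kinase gene Lck (1.88 ± 0.38 against 4.57 ± 1.05 CPM, adjusted p = 0.00508), the exchange factor genes Vav1 and Vav2, and Ptpn6, the phosphatase SHP-1 recruited by inhibitory receptors. Those that rose were Fyn and Ptpn11. In uncured against cured mice 15 of 20 were higher and 3 lower, where 70% of all genes were called and 36.9% were higher. Among the higher ones was Tyrobp (60.6 ± 7.8 against 25.2 ± 0.57 CPM, log2 fold change 1.25 ± 0.11), the DAP12 adaptor of activating receptors. For uncured against untreated mice 0 of 20 were called (0% of all genes).

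The ligands (20 of 21 in the table) gave 0 calls of 15 at 3wk (0.574% of all genes). In uncured against untreated mice they gave 0 of 16 (0% of all genes). In cured against untreated mice 7 of 15 fell and 1 rose, a share called that is near the 44.7% of all genes (26.7% lower). Cdh1, the E-cadherin bound by KLRG1 and itself a gastric epithelium gene, was at 302 ± 118 CPM in untreated and 3.17 ± 0.98 CPM in cured mice, a fall of 6.56 on the log2 scale. The NKG2D ligand H60c, at 2.66 ± 1.77 CPM in untreated mice, and Clec2f, at 3.02 ± 1.18 CPM, had no count in the 3 cured mice, which is at least 17.2-fold and 19.5-fold lower when a floor of 3 counts per library is used. Raet1b and Raet1c had no count in any library. H2-T23, which encodes the Qa-1 ligand of CD94 and NKG2A, was at 114 ± 34 CPM in untreated, 161 ± 0.98 CPM in uncured and 65.4 ± 9.1 CPM in cured mice (adjusted p = 0.0332 for cured against untreated). The list median for cured against untreated mice was -0.72, also with the genes at the floor held at their bound.

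Of the other NK lineage and effector genes (19 of 20 in the table, Sh2d1b2 at 0 in all groups), 3 of 18 rose with dual ICI at 3wk and 0 fell: Nkg7, a granule protein of cytotoxic cells (9.15 ± 2.96 against 2.21 ± 0.34 CPM, adjusted p = 0.00681), the chemokine gene Ccl5 and Ctsw. The median log2 fold change was 0.85 against 0.02 over all genes, of which 0.574% were called. In cured against untreated mice 9 of 17 fell and 0 rose, beside 26.7% of all genes lower, with a median of -1.44. Among them were Eomes, a T-box factor of NK cells (2.10 ± 0.71 CPM in untreated, and 3 counts in all over the 3 cured mice), Il2rb (6.97 ± 1.43 to 2.41 ± 0.23 CPM, adjusted p = 0.00100), Il18rap, Il18r1 and the granzyme gene Gzma (1.73 ± 0.74 to 0.246 ± 0.168 CPM, adjusted p = 0.00451). In uncured against cured mice 16 of 18 were higher and 0 lower (median 2.40), beside 36.9% of all genes higher. In uncured against untreated mice 0 of 18 were called (0% of all genes), with 17 above 0 (48.8% of all genes). Many of these genes are also expressed by T cells or, as with Itga2, by epithelium. Itga2 fell from 24.4 ± 16.3 to 2.41 ± 1.00 CPM in cured mice.

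The genes whose level moved most like that of each receptor over the 29 libraries were found by the root mean square (RMS) difference of centred log2 CPM among the 15638 other genes with a mean of at least 10 counts. For Klrk1 they included Irgm2 (RMS 0.39), an interferon-induced GTPase gene, and Plbd1 (0.39). For Klrd1 they were Il2rb (0.43), Rasgrp1 (0.46) and Ms4a4c (0.48), and for Klrc1 Cxcr6 (0.57), Cd3g (0.57) and Cd244 (0.60). Ncr1 was most like Ctla2b (0.46), Il2rg (0.46) and Cd80 (0.48), Klrb1c most like Igsf6 (0.36), Parp11 (0.38) and Nod2 (0.38), Klre1 most like Amz1 (0.58), 4933412E12Rik (0.58) and Xaf1 (0.58), and Klrg1 most like Plvap (0.49), Ntn3 (0.52) and Thy1 (0.52). No receptor had another receptor among its 3 closest genes. By rank the nearest was Klrd1, the 22nd closest gene to Klrc1 (RMS 0.68), and by distance Ncr1 and Klrb1c (RMS 0.59). Counting noise adds to these distances for the genes of few counts, such as Ncr1 and Klre1.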

How the data were processed

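RNA-seq libraries of 29 mice, 1 per mouse, were analysed. The authors deposited raw counts per gene, and these counts, as deposited, were used with no column left out. The submitters' processing notes name STAR 2.7.0f, featureCounts 1.6.4 and mm10, whereas the study's methods name STAR 2.5.2b and HTSeq 0.6.1. The annotation and strand setting are not given in the sources used here, so reads of overlapping genes could not be told apart. Libraries were 150 bp paired-end.

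Groups followed treatment, day and mouse number in the labels, and the outcome of the dual ICI mice at 5wk followed the mouse numbers in the study's text. Nothing in the labels describes the mice of a group beyond separate numbers. Genes were filtered with filterByExpr, scaled by TMM and tested with edgeR 4.0.16 (R 4.3.3, limma 3.58.1; two-sided quasi-likelihood test by glmQLFit and glmQLFTest, p adjusted over all genes tested by Benjamini-Hochberg, called under 0.05), with the compared groups alone in each fit. CPM used TMM-scaled library sizes over all 29 libraries, and log2 CPM a prior count of 2. Totals of 25989217 to 31219650 counts limit the precision of receptor levels, which rested on 2 to 300 counts. Alternatives were DESeq2 1.42.0, other scalings and filters, skeletal muscle genes left out, 1 fit of all libraries, a replicate block and leaving out each library. The procedure was tested on simulated data with 4-fold changes. Of the changed genes with low counts, it recovered 32 of 41 for dual ICI against untreated mice at 3wk. At 5wk it recovered 8 of 42 for uncured and 15 of 35 for cured against untreated mice. A receptor that was not called could thus still have changed.

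The receptors and gene lists were chosen with earlier results of these data known. Named genes were the 7 receptors, up to 6 called genes of each list and comparison by adjusted p (otherwise the 2 of highest mean), and the 3 genes most like each receptor, of which 1 is not reported here. Genes named as being at 0 and ratios between receptors were chosen after their values were seen. Symbols were matched to GENCODE vM21 (23376 of 24421).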

Additional observations from a re-analysis of the deposited data

Results flagged for a closer look

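Within groups of 4 or 5 mice, Dixon's test at 95% marked 5 of the 35 sets of values of a receptor in a group. For independent sets of normal values about 1 in 20 would be marked. The receptors share libraries and normality was not tested, so that rate need not apply here. Klrk1 in anti-PD1 mouse 5 was at 3.59 CPM, with the other 4 mice at 0.930 to 1.58 CPM. Klrd1 and Klrc1 were both marked in dual ICI 3wk mouse 4, at 6.66 CPM against 1.36 to 2.74 CPM and at 4.33 CPM against 0.508 to 1.61 CPM. Klrd1 in anti-PD1 mouse 3 was at 2.18 CPM against 0.364 to 0.886 CPM. Klre1 in anti-CTLA4 mouse 2 was at 0.635 CPM against 0.212 to 0.267 CPM. Each of the 5 was the highest of its group.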

How the results depend on the processing

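The numbers of receptors called in the cured against untreated and the uncured against cured comparisons (3 and 6) were 3 and 6 with upper-quartile scaling and without skeletal muscle genes (a change of scaling that does not bear on tissue content), and 2 and 6 with DESeq2 size factors. For cured against untreated mice the count was 1 without the low-count filter, 0 with at least 10 counts in every library, where Klrk1 alone was left to test, and 0 with a replicate block. For uncured against cured mice it was 3 with DESeq2, 0 with at least 10 counts in every library, again with Klrk1 alone left, 4 without the low-count filter (Ncr1 and Klrb1c lost, adjusted p = 0.0894 and 0.0580 by edgeR) and 5 in 1 fit of all 29 libraries. For untreated 5wk against 3wk it was 0 in 1 fit of all 29 libraries. Leaving out 1 library gave 0 to 3, 1 to 5 and 0 to 1 receptors in these comparisons. With 1 of 2 uncured mice left out, the lone library was assumed to vary like the other group. Beyond the stricter filter, which left fewer genes, the causes were not tested.

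Deviations of same-numbered mice had correlations from -0.647 to 0.641, with no constant sign. The labels do not say that equal numbers pair mice, and these correlations cannot exclude it. The numbers are those of the titles, and the library names number the dual ICI mice at 3wk differently. The block moved the calls over all genes from 7067 to 4016 for cured against untreated mice and from 89 to 209 for dual ICI at 3wk. For uncured against cured mice no block could be fitted, because these mice share no numbers.

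Over single receptors, 1035 alternative values kept direction and side of the threshold, 49 lost a call, 1 gained one and 34 log2 fold changes of uncalled receptors changed sign. With the replicate block these were Klre1 at 3wk (-0.00512), Klrb1c and Klrd1 in all dual ICI mice at 5wk (-0.015 and -0.18), and Klrk1 and Klrg1 under anti-CTLA4 (-0.033 and -0.28). For Klre1 in all dual ICI mice it was 0.0057 with DESeq2 size factors and 0.011 in 1 fit of all libraries. Leaving out 1 library gave -0.34 to 0.37 for Klre1 and -0.30 to 0.099 for Klrg1 at 3wk. In all dual ICI mice at 5wk it gave -0.74 to 0.22 for Klre1, -0.24 to 0.36 for Klrb1c and -0.28 to 0.52 for Klrd1. Under anti-PD1 it gave -0.20 to 0.33 for Klrb1c, -0.27 to 0.37 for Klrk1 and -0.77 to 0.070 for Klrd1. Under anti-CTLA4 it gave -0.27 to 0.32 for Klrd1, -0.063 to 0.41 for Klrk1, -0.44 to 0.40 for Klrg1 and -0.27 to 0.000825 for Klrc1. For untreated mice over time it gave -0.26 to 0.091 for Klre1, and for the difference of the dual ICI effects -0.71 to 0.17 for Klrc1.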
